A study of Mus musculus with 5 samples.

Results

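The messenger RNA levels of 10 cyclic nucleotide phosphodiesterase genes, Pde1a, Pde1b, Pde1c, Pde3a, Pde3b, Pde4a, Pde4b, Pde4d, Pde5a and Pde8b, were followed through 5 libraries of mouse visceral adipose tissue. They were chosen by name, as a class of enzymes proposed as targets of resveratrol, with earlier results of these data known. The deposited count table held 78334 gene identifiers. All 10 were found there by symbol, and all 10 were among the 24779 genes with enough counts to be tested. The resveratrol group comprised 2 libraries from male C57BL/6 mice that were fed a 60% kcal fat diet for 8 weeks, starting when they were 8 weeks old, and were then given resveratrol at 2.25 mg/kg by daily gastric tube for 28 days. The obesity group comprised 2 libraries from mice on the same diet that were given vehicle for that period, and the control group 1 library of standard chow and vehicle. In every group the diet ran for 8 weeks from 8 weeks of age, and the 28 days began at 16 weeks of age. No genetic change was named in the labels for any group. Resveratrol is a plant polyphenol. The labels do not say that the libraries of a pair are different mice, so p-values here measure only library-to-library spread, which may be technical.

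Phosphodiesterases break down the second messengers cAMP and cGMP, and so end the signals that adenylyl and guanylyl cyclases begin. In fat cells, catecholamines raise cAMP, protein kinase A then drives the breakdown of stored fat, and insulin opposes this in large part by activating phosphodiesterase 3B. The families differ in what they cleave and in what controls them: PDE1 enzymes are switched on by calcium and calmodulin and act on both messengers, PDE3 enzymes cleave cAMP and are held back by cGMP, PDE4 and PDE8 enzymes are specific for cAMP, and PDE5 is specific for cGMP. The measurements below are of RNA and say nothing of enzyme activity.

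Levels are given as counts per 1000000 (CPM) after scaling by the trimmed mean of M values, and SE is a standard error from the fit. Total counts lay between 19540961 and 27026597. The labelled tissue was checked against cell type markers, and 2 libraries stood apart. The 12 adipocyte markers summed to 7651 and 34758 CPM in libraries 1 and 2 of the resveratrol group, to 33218 and 36424 CPM in obesity libraries 1 and 2, and to 571 CPM in control. The 10 smooth muscle markers summed to 56026 CPM in library 1 of the resveratrol group, and to between 542 and 2639 CPM in the other libraries. The 5 skeletal muscle markers summed to 1085 CPM in the same library and to at most 85.9 CPM in the others. Acta1 and Ckm made up 810 and 255 CPM of that sum, and Myh4 was at 0 there. The sum of the 12 epididymal markers was 3410 CPM in library 1 of the resveratrol group and 64431 CPM in control, and at most 18.1 CPM elsewhere. In resveratrol library 1 nearly all of this sum was Crisp1, at 3397 CPM. Spink11 came next at 11.5 CPM, and 4 of the 12 were at 0 there, whereas none was at 0 in control. The obesity pair was not uniform either. In obesity libraries 1 and 2 the smooth muscle markers summed to 875 and 542 CPM, with Cnn1 at 33.6 and 0.238 CPM. The epididymal markers summed there to 18.1 and 0.286 CPM. No adipocyte marker was at 0 in any library, but in control their median member stood at 1.37% of its obesity mean. These marker levels move with many of the differences below, and their part in each was not tested. In bulk tissue, fewer cells of a type and less RNA per cell cannot be told apart.

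The comparison of resveratrol with obesity asks whether the drug altered the genes of its proposed target class on the high-fat diet. No phosphodiesterase gene was called, and the differences that looked large came mostly from resveratrol library 1. Pde5a and Pde1c were far higher in that library than in any other, Pde8b was far higher there than in the obesity pair, while Pde3b and Pde1b, the most abundant members per kilobase in obesity, were lower there. In resveratrol library 2 most members stood near the obesity pair, with Pde4b as the main exception. Pde1a was the single gene of the 10 at a higher level in both resveratrol libraries than in both obesity libraries, and Pde1b the single one at a lower level. Of all genes tested, 16.9% were higher and 16.7% lower in this way.

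Pde3b, the insulin-regulated enzyme of fat cells, was at 115 and 229 CPM in libraries 1 and 2 of the resveratrol group, against 197 and 265 CPM in obesity libraries 1 and 2. The groups overlapped, and only resveratrol library 1 lay below the obesity pair. The log2 difference was -0.43 (SE 0.451), and without resveratrol library 1 it was -0.0010. Its relative Pde3a, the cGMP-inhibited form best known from heart, platelets and vascular muscle, was at 28.5 and 11.7 CPM in the resveratrol pair, against 12.1 and 7.38 CPM in the obesity pair. Here resveratrol library 2 lay between the obesity libraries, and the log2 difference was 1.04 (SE 0.591), or 0.27 without resveratrol library 1.

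Among the cAMP-specific enzymes, Pde4b, the form linked to inflammatory signalling in immune cells, was at 3.95 and 27.5 CPM in libraries 1 and 2 of the resveratrol group, against 10.7 and 6.76 CPM in the obesity pair. The resveratrol libraries lay on opposite sides of the obesity pair, so the log2 difference of 0.85 (SE 0.995) became 1.67 without resveratrol library 1 and -1.13 without resveratrol library 2. Pde4a was at 12.7 and 22.6 CPM in the resveratrol pair, against 21.0 and 21.1 CPM in the obesity pair. Its obesity libraries were nearly alike and lay between the resveratrol libraries, and the log2 difference of -0.26 (SE 0.373) became 0.11 without resveratrol library 1. Pde4d, another rolipram-sensitive form, was at 13.2 and 11.4 CPM in the resveratrol pair, against 8.87 and 14.2 CPM in the obesity pair, a log2 difference of 0.09 (SE 0.398) that became -0.0053 without resveratrol library 1. Pde8b, a high-affinity cAMP enzyme of endocrine tissues, was at 22.9 and 2.96 CPM in the resveratrol pair, against 4.59 and 3.38 CPM in the obesity pair. Of these 4 libraries it was high in resveratrol library 1 alone, and its log2 difference of 1.70 (SE 1.05) became -0.42 without that library.

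The calcium-regulated forms did not move together. Pde1a, which occurs in brain, vascular muscle and sperm, was at 24.3 and 22.8 CPM in libraries 1 and 2 of the resveratrol group, against 14.0 and 16.4 CPM in the obesity pair, a 1.55-fold higher fitted level and a log2 difference of 0.63 (SE 0.268). This was the smallest p among the 10 genes in edgeR's quasi-likelihood test (unadjusted p = 0.0746, adjusted p = 0.899), and the log2 difference stayed between 0.53 and 0.75 when each library was left out in turn. Pde1b, a form of brain and of myeloid cells, was at 6.27 and 36.4 CPM in the resveratrol pair, against 51.1 and 47.0 CPM in the obesity pair. Both resveratrol libraries lay below both obesity libraries, and its log2 difference of -1.20 (SE 0.874) was -0.42 without resveratrol library 1. The 8 macrophage markers had a median of 18.8% and 111% of their obesity mean in resveratrol libraries 1 and 2, beside 12.8% and 74.3% for Pde1b. Pde1c, a form of proliferating smooth muscle and of sensory neurons, was at 10.5 and 0.272 CPM in the resveratrol pair, against 0.313 and 0.524 CPM in the obesity pair. Outside resveratrol library 1 it rested on 7, 6 and 11 counts in these groups, and its log2 difference of 3.66 (SE 1.81) became -0.60 without that library. Pde5a, the cGMP enzyme of vascular and other smooth muscle that sildenafil inhibits, was at 54.1 and 4.28 CPM in the resveratrol pair, against 7.51 and 2.67 CPM in the obesity pair. Its log2 difference of 2.52 (SE 1.36) became -0.24 without resveratrol library 1, the library with the smooth muscle transcripts.

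**Figure D1:**
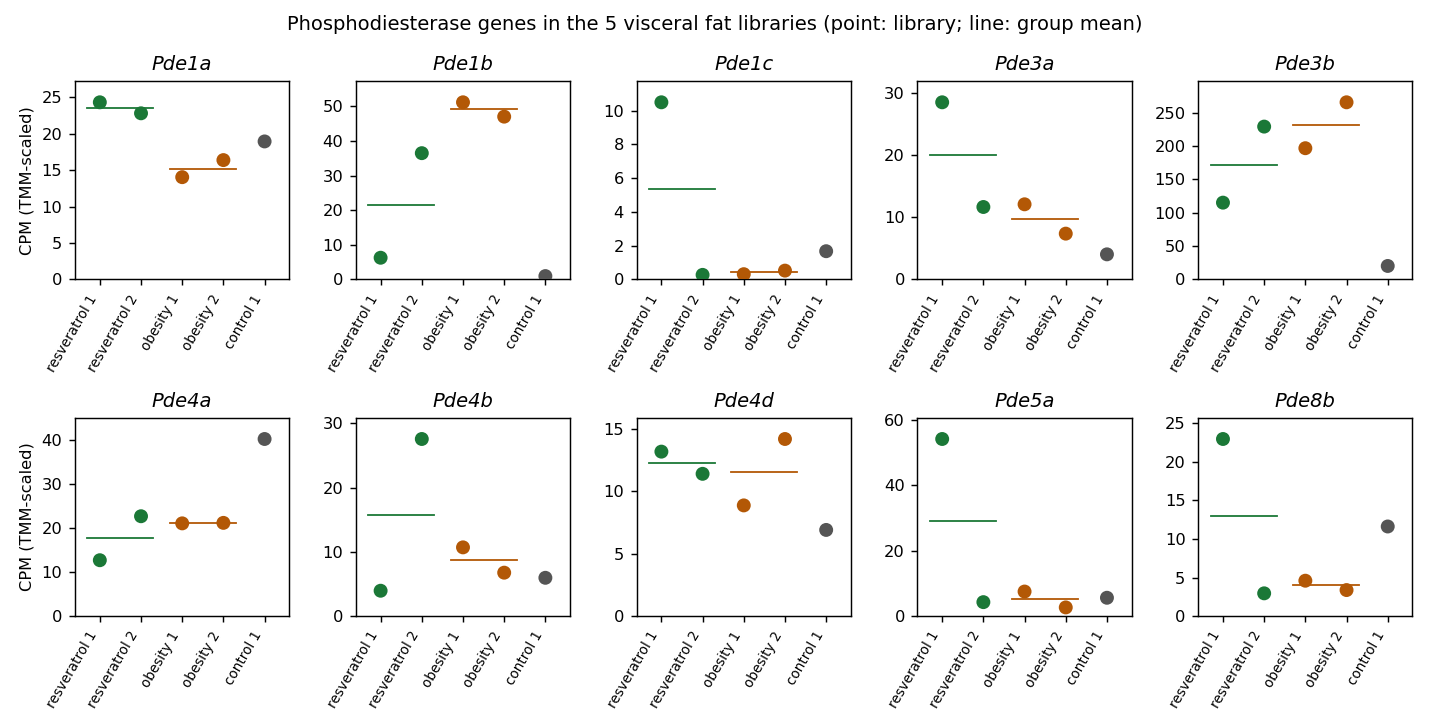
Level of each of the 10 genes in CPM (vertical axis, from 0, each panel on its own scale) in the 5 libraries (horizontal axis); points are libraries and lines are means of the pairs. Pde5a, Pde1c and Pde8b are highest in resveratrol library 1, and Pde3b and Pde1b are lowest in the control library.

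For resveratrol against obesity, 0 of the 10 genes and 0% of all genes tested were called by edgeR (quasi-likelihood test, Benjamini-Hochberg adjusted p under 0.05). An unadjusted p under 0.05 was reached by 0 of the 10, against 2.34% of all genes (581), of which 1.92% were higher and 0.428% lower. DESeq2 called 0 members and 1.27% of the genes it adjusted (224), and limma-voom called 0 of both. The libraries did not overlap for 2 of 10 members, Pde1a higher and Pde1b lower, against 33.7% of all genes (16.9% higher and 16.7% lower). In the fit 7 of 10 members were higher, against 52.8% of all genes, and the median log2 difference was 0.74, against 0.05 over all genes. Without resveratrol library 1, 4 of 10 were higher, against 46.9% of all genes, and the members' median was -0.0032. With resveratrol library 2 left out, which sets library 1 alone against obesity, 5 members passed in edgeR (Pde1c, Pde3a and Pde8b upward, Pde1b and Pde3b downward), beside 19.5% of all genes. With resveratrol library 1 left out 0 members and 0.136% of all genes passed, and with control left out as well 0 members and 0.334%.

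The gap between the resveratrol libraries was wider than any fitted difference between groups for Pde1c, Pde5a, Pde8b and Pde4b. Pde1c was 38.5 times, Pde5a 12.6 times and Pde8b 7.76 times higher in resveratrol library 1 than in resveratrol library 2, whereas Pde4b was 6.97 times and Pde1b 5.81 times higher in library 2. Pde3a was 2.44 times higher in resveratrol library 1 than in resveratrol library 2. Between the obesity libraries Pde5a differed most of the 10, by 2.82 times. On the log2(CPM + 0.5) scale the median absolute difference of the members was 1.85 within the resveratrol pair and 0.41 within the obesity pair, beside 0.52 and 0.24 for all genes tested. With 1 library on each side these gaps have no test.

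Start regions are shown for the 5 genes that differed most within the resveratrol pair, from RefSeq on build GRCm38.p6, which is not the build of the counts. Each window runs from 250 bases before to 50 bases after an annotated start. Capitals mark TGACG or its reverse complement CGTCA, the core of the cAMP response element, to which the cAMP-activated factor CREB binds. Where a gene has several annotated starts, the window with a match is shown, or else the most upstream one.
Pde1c, chr6:56369585-56369884, minus strand: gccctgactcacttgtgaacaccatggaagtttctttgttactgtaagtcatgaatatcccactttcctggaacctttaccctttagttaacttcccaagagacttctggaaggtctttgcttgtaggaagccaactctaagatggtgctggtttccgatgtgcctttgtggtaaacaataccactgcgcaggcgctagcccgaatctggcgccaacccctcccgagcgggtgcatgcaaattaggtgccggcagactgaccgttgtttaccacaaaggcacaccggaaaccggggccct
Pde5a, chr3:122728908-122729207, plus strand: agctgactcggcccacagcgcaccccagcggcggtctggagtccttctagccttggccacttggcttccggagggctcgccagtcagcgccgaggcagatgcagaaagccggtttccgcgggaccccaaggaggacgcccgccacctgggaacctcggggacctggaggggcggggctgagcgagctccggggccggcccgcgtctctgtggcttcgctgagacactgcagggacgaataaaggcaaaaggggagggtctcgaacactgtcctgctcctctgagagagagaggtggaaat
Pde8b, chr13:95223001-95223300, minus strand: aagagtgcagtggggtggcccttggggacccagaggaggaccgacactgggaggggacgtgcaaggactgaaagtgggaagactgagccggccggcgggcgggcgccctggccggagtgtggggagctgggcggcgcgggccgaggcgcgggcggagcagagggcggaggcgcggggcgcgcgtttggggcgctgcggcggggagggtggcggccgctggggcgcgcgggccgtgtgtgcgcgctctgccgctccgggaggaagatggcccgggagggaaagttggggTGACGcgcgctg
Pde4b, chr4:102421305-102421604, plus strand: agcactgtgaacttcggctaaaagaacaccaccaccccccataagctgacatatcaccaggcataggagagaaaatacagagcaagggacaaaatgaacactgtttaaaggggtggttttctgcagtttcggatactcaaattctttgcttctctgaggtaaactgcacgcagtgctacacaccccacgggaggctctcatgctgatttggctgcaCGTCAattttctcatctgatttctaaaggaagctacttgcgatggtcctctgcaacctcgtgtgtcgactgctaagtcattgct
Pde1b, chr15:103502784-103503083, plus strand: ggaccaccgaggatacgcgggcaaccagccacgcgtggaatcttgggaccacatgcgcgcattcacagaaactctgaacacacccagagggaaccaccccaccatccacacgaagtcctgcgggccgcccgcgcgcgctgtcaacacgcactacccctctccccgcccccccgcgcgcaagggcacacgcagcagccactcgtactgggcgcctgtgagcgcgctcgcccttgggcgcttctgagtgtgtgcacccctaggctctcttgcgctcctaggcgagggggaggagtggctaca
Of the 10 genes 8 had at least 1 window, with 24 windows in all, and the remaining 2, Pde3a and Pde3b, are named only. TGACG was found on either strand in 4 of the 24 windows, at 1 start each of Pde1a, Pde4a, Pde4b and Pde8b, and in 20.8% of all 32851 windows. The whole element TGACGTCA, which contains the core on both strands, was in 0 of the 24 windows and in 1.79% of all windows. The CArG box, which serum response factor binds in many smooth muscle genes, was in 0 of the 24 windows, Pde5a and Pde1c included, and in 1.63% of all windows. No match says only that these letters are not in these windows.

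The comparison of obesity with control asks how the high-fat diet altered these genes in visceral fat. Pde3b and Pde1b were many times higher in the obesity pair than in the lone control library, and Pde1c, Pde8b, Pde4a and Pde1a were lower in both obesity libraries. No difference was called in the fit of all 5 libraries. Pde3b and Pde1b were lowest in the control library, where the adipocyte and macrophage markers were also low. In resveratrol library 1, resveratrol library 2 and control, Pde3b stood at 49.8%, 99.1% and 8.76% of its obesity mean. Pde1b stood at 12.8%, 74.3% and 1.99%. Marker medians were 21.2%, 108% and 1.37% for adipocytes and 18.8%, 111% and 6.43% for macrophages in these libraries. The part of these cell types was not tested. Pde3a, Pde4b and Pde4d were also higher in both obesity libraries than in control. Pde3a and Pde4d stood at 293% and 114% of their obesity mean in resveratrol library 1, beside marker medians of 21.2% and 18.8%. Pde4b stood at 316% in resveratrol library 2, beside 108% and 111%. The control library also carried the epididymal transcripts. High-fat diet and the tissue make-up of the single control library cannot be told apart.

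Pde3b was at 197 and 265 CPM in the obesity libraries and at 20.2 CPM in the lone control (95% exact Poisson interval 18.6 to 21.9, which covers counting error only). Both obesity libraries lay far above control, an 11.4-fold fitted difference and a log2 difference of 3.51 (SE 0.668), with an edgeR adjusted p of 0.178 (0.00564 before adjustment). Set beside Pde3b, which stood in control at 8.76% of its obesity mean, the median adipocyte marker stood at 1.37%. Pde1b was at 51.1 and 47.0 CPM in the obesity pair and at 0.976 CPM in the lone control (0.649 to 1.41). Its log2 difference of 5.64 (SE 1.46) was the largest of the 10, with an edgeR adjusted p of 0.182, and the median macrophage marker stood in control at 6.43% of its obesity mean, beside 1.99% for Pde1b.

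Pde4a went the other way, at 21.0 and 21.1 CPM in the obesity pair and 40.1 CPM in the lone control (37.9 to 42.5), a log2 difference of -0.93 (SE 0.443). Pde8b, at 4.59 and 3.38 CPM in the obesity pair and 11.6 CPM in the lone control, and Pde1c, at 0.313 and 0.524 CPM in the obesity pair and 1.67 CPM in the lone control, were also lower in obesity. Their log2 differences were -1.54 (SE 1.21) and -1.98 (SE 1.95). Pde1a was at 14.0 and 16.4 CPM in the obesity pair and 18.9 CPM in the lone control, a log2 difference of -0.32 (SE 0.323). Pde3a was at 12.1 and 7.38 CPM in the obesity pair and 4.05 CPM in the lone control, Pde4b at 10.7 and 6.76 CPM and 5.96 CPM, and Pde4d at 8.87 and 14.2 CPM and 6.90 CPM. All 3 were higher in both obesity libraries, by log2 differences of 1.27 (SE 0.762), 0.55 (SE 1.24) and 0.74 (SE 0.504). Pde5a, at 7.51 and 2.67 CPM in the obesity pair and 5.61 CPM in the lone control, was the only gene of the 10 with control inside the obesity range.

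In edgeR's quasi-likelihood test 0 of 10 members and 0% of all genes passed for obesity against control, and 2 of 10 members, Pde1b and Pde3b, both higher, had an unadjusted p under 0.05, against 24.3% of all genes (6018), 12.6% higher and 11.7% lower. Obesity and control did not overlap for 9 of 10 members, 5 higher and 4 lower, against 89.4% of all genes, 40.8% higher and 48.6% lower. In limma-voom 0 members and 0 genes passed. In the fit 5 of 10 members were higher, against 46.9% of all genes. The members' median log2 difference was 0.20, against -0.10 over all genes, and their median absolute difference 1.10, against 1.36. DESeq2 called 2 members, Pde1b and Pde3b, with adjusted p of 4.14e-05 and 8.40e-06, and 21.6% of the genes it adjusted (4529). The resveratrol libraries, which are in neither group, entered the fit. Without resveratrol library 1, 4 members passed (Pde1b, Pde3b, Pde4a and Pde8b) beside 37.9% of all genes, and without resveratrol library 2, 5 members passed (these and Pde1c) beside 37.3%. With both left out 4 members passed, beside 39.4% of all genes.

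The remaining comparison, resveratrol with control, shares its libraries with both comparisons above. Pde3b, at 115 and 229 CPM in libraries 1 and 2 of the resveratrol group and 20.2 CPM in the lone control, and Pde1b, at 6.27 and 36.4 CPM and 0.976 CPM, were again higher in both libraries, by log2 differences of 3.09 (SE 0.651) and 4.44 (SE 1.37). Pde3a, at 28.5 and 11.7 CPM in the resveratrol pair and 4.05 CPM in the lone control, differed by 2.31 (SE 0.807), and Pde4a, at 12.7 and 22.6 CPM and 40.1 CPM, by -1.18 (SE 0.441). Pde4d and Pde1a were higher in both resveratrol libraries by 0.83 (SE 0.506) and 0.31 (SE 0.330). For Pde1c, Pde4b, Pde5a and Pde8b control lay between the resveratrol libraries, and their log2 differences of 1.68 (SE 2.13), 1.40 (SE 1.29), 2.38 (SE 1.77) and 0.16 (SE 1.26) changed sign on leaving out 1 of them. Without resveratrol library 1 these differences were -2.57, 2.23, -0.37 and -1.95, and without resveratrol library 2 they were 2.67, -0.57, 3.29 and 1.01.

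For resveratrol against control, edgeR's quasi-likelihood test passed 0 of 10 members and 0% of all genes, and 3 of 10 members, Pde1b, Pde3a and Pde3b, all higher, had an unadjusted p under 0.05, against 18.5% of all genes (4596), 10.5% higher and 8.05% lower. The groups did not overlap for 6 of 10 members, 5 higher and 1 lower, against 78.7% of all genes, 37.7% higher and 41% lower. In the fit 9 of 10 members were higher, against 51.4% of all genes, and their median log2 difference was 1.54, against 0.05 over all genes. Without resveratrol library 1, 6 of 10 were higher, against 47.4% of all genes, and the members' median was 0.52. DESeq2 called 2 members, Pde1b and Pde3b, and 15.4% of the genes it adjusted (3083), and limma-voom called 0 members and 80 genes. In edgeR without resveratrol library 1, 4 members passed (Pde1b, Pde3b and Pde4b upward, Pde8b downward) beside 30.7% of all genes. Without resveratrol library 2, 5 passed (Pde1b, Pde1c, Pde3a and Pde3b upward, Pde4a downward) beside 17.2%.

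**Figure D2:**
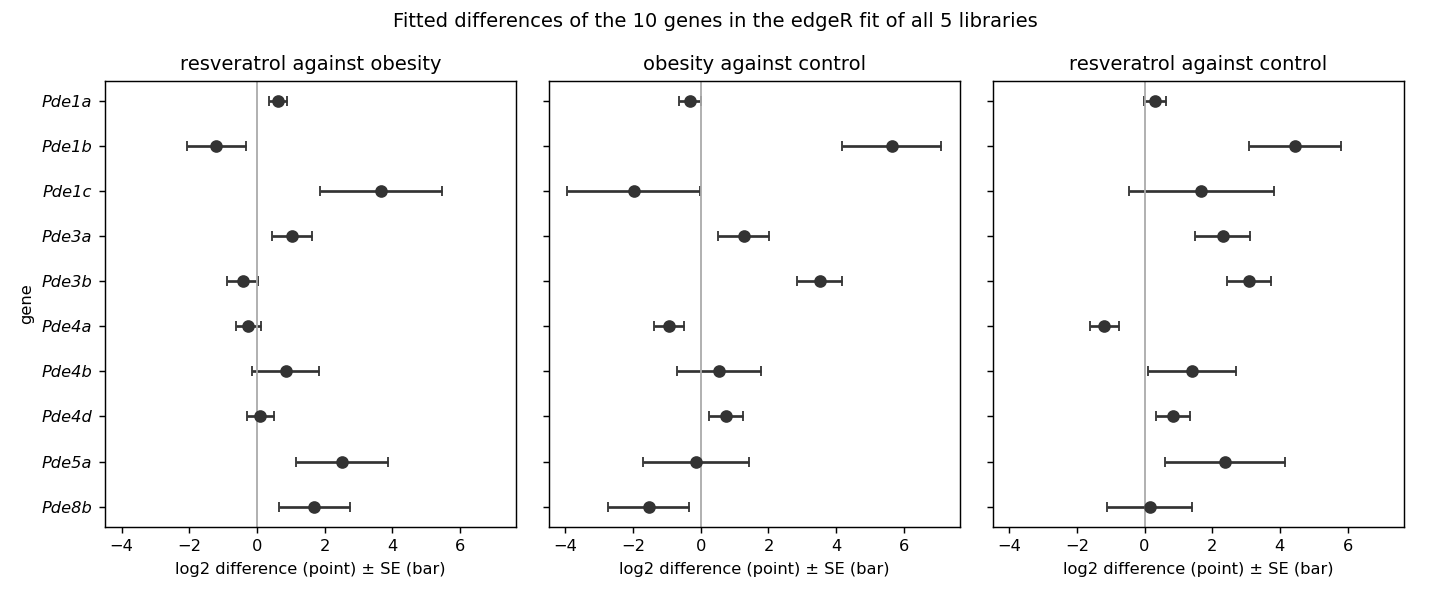
Fitted log2 difference (points) with its SE (bars) for the 10 genes in the 3 comparisons of the edgeR fit, positive when the group named ahead is higher. Pde1b and Pde3b lie at 5.64 and 3.51 for obesity against control, and Pde1c and Pde5a have wide bars in each comparison.

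The members were also set beside the marker lists, each as a percent of its obesity mean. In resveratrol library 1, Pde1c stood at 2509%, Pde5a at 1062%, Pde8b at 576% and Pde3a at 293% of the obesity mean, in the library where the median smooth muscle marker stood at 9564%. In resveratrol library 2 the same 4 genes stood at 65.1%, 84.1%, 74.2% and 119.8%, beside 95.9% for the smooth muscle markers. Of the 5 skeletal muscle markers, Ckm, a creatine kinase, was at 255 CPM in resveratrol library 1 and at most 0.593 CPM elsewhere. Acta1 was at 810 CPM in resveratrol library 1 and at most 83.6 CPM elsewhere, and Tnnt3 at 19.0 and at most 1.09 CPM. Myh4 was at 0 in resveratrol library 1, and Mylpf was at 0.954 CPM, against 3.80 CPM in control. The part of skeletal muscle in these levels was not tested. In control Pde1c, Pde5a, Pde8b and Pde3a stood at 400.1%, 110.3%, 291% and 41.5%, beside 204% for the smooth muscle markers. Pde3b stood at 49.8% in resveratrol library 1, 99.1% in resveratrol library 2 and 8.76% in control, and the adipocyte markers at 21.2%, 108% and 1.37%. Pde4b stood at 45.3%, 316% and 68.3% in the same 3 libraries. The endothelial markers had medians of 34.6%, 174% and 20.1% there, and the pericyte markers 166%, 216% and 36.2%. The 6 lymphocyte markers summed to 6.72 and 25.8 CPM in libraries 1 and 2 of the resveratrol group, beside 4.33 and 6.28 CPM in obesity libraries 1 and 2. In control they summed to 4.78 CPM, of which Cd2 made up 3.59 CPM, and 4 of the 6 were at 0. The 5 mesothelial markers had medians of 74.1%, 842% and 14.2% in resveratrol library 1, resveratrol library 2 and control. Their sums were 214 and 214 CPM in the resveratrol pair, 140.2 and 18.5 CPM in the obesity pair and 124 CPM in control. Krt19 made up most of 3 of these sums, at 207 CPM in resveratrol library 1, 115 CPM in obesity library 1 and 122 CPM in control. It was at 14.4 CPM in resveratrol library 2 and 3.43 CPM in obesity library 2. Upk3b was at 2.50 and 108 CPM in the resveratrol pair, 23.6 and 6.00 CPM in the obesity pair and 0.209 CPM in control. Msln was at 1.82 and 65.4 CPM in the resveratrol pair, 0 and 4.90 CPM in the obesity pair and 0.349 CPM in control. The part of these cell types in the Pde4b value was not tested.

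**Figure D3:**
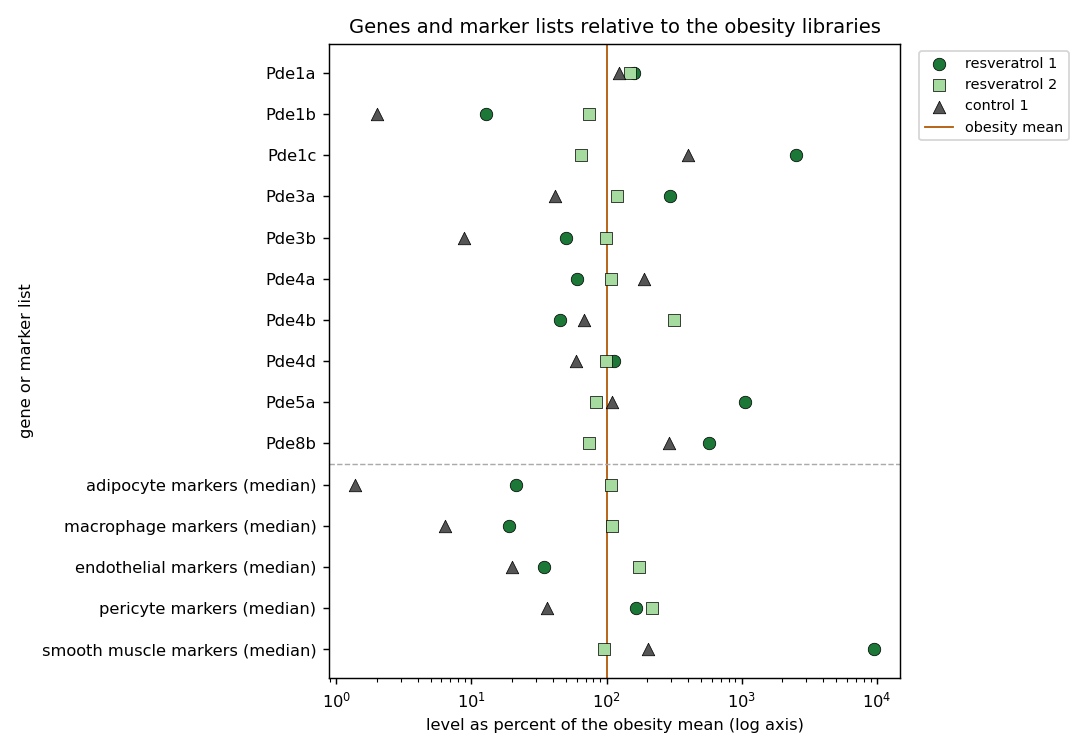
Level in resveratrol libraries 1 and 2 and in control as a percent of the obesity mean (horizontal log axis; line at 100%) for the 10 genes and for the median member of 5 marker lists (rows). Resveratrol library 1 is far to the right for Pde1c, Pde5a, Pde8b and the smooth muscle markers, and control is far to the left for Pde1b, Pde3b and the adipocyte and macrophage markers.

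To compare levels between genes, CPM was divided by the length of each gene's merged exons in kilobases, from GENCODE M21 on GRCm38. Over 24 phosphodiesterase genes, these 10 and the remaining 14, Pde3b had the highest level per kilobase in resveratrol library 2 and in both obesity libraries, with 33.2%, 27.7% and 34.8% of the summed level. In resveratrol library 1 it had 20.6% and came next to Pde6d, which had 25.8% and encodes a prenyl-binding protein that was named as a subunit of the photoreceptor enzyme. In control Pde3b had 6.45% and rank 6, and Pde8a, Pde6d and Pde4a led with 18.4%, 17.0% and 15.3%. Pde1b took 1.90% and 8.94% of the summed level in resveratrol libraries 1 and 2, 12.2% and 10.4% in obesity libraries 1 and 2, and 0.526% in control. Pde5a took 8.99% in resveratrol library 1, where it ranked 3, and at most 1.66% in the other libraries. The summed level of the 24 genes was 61.1 and 75.6 CPM per kilobase with resveratrol, 77.8 and 83.7 in obesity and 34.4 in control, of which the 10 members made up 54.2%, 58.3%, 51.9%, 55.7% and 43.3%. Without replicates for control and with wide gaps in the resveratrol pair, these shares are descriptions of the libraries.

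**Figure D4:**
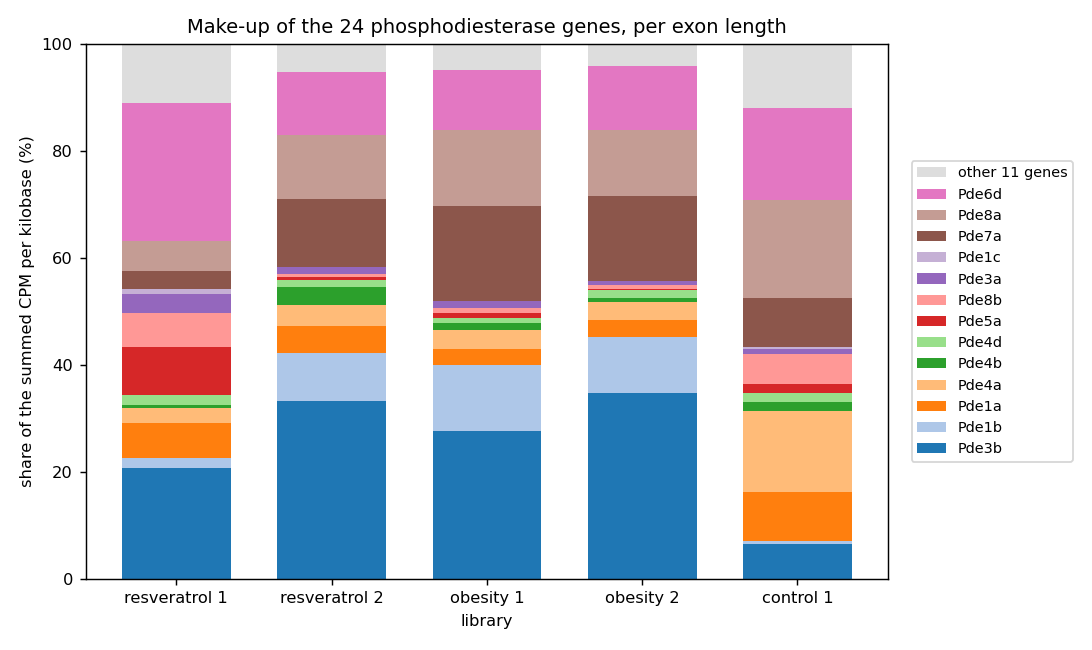
Share of each gene in the summed level per kilobase of 24 phosphodiesterase genes (vertical axis, percent) in each library (horizontal axis), with the 10 members at the bottom of each bar and Pde7a, Pde8a, Pde6d and the other genes above. Pde3b takes 33.2%, 27.7% and 34.8% in resveratrol library 2 and obesity libraries 1 and 2, and 6.45% in control.

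The genes whose pattern over the 5 libraries was most like each member were found among 14169 genes with a symbol and a mean of at least 1 CPM, by the root mean square difference of centred log2(CPM + 0.5) values. Over all libraries, Pde3a lay nearest to another phosphodiesterase gene, Pde9a, a high-affinity cGMP enzyme, at a distance of 0.105, followed by the clock-output gene Dbp at 0.133. Pde9a was at 13.6 and 6.11 CPM in libraries 1 and 2 of the resveratrol group, 5.01 and 3.57 CPM in the obesity pair and 1.78 CPM in the lone control. Pde1b lay nearest to Tmem106a and Cd48, Cd48 being a surface protein gene of leukocytes, at 0.0780 and 0.107. Pde3b lay nearest to Mpdz and Hip1, at 0.0678 and 0.0741, and Pde8b to Adgrg6 and Cystm1, at 0.100 and 0.115. For Pde5a (Bdh2 and Nrg1), Pde1c (Dusp5 and Tes) and Pde4b (Apoa1 and Fgf18) the nearest genes were farther off, at 0.179 to 0.226. Pde1a had Tyw3 and Atrip, Pde4a had Lbhd1 and Gas2l1, and Pde4d had Gtf2h4 and Rnf146 nearest, at 0.0422 to 0.0607. Among the members themselves the nearest pairs were Pde1a with Pde4d, at 0.392, and Pde1c with Pde8b, at 0.545. With 5 points and so many candidates these distances are descriptions only.

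Of the 14 other phosphodiesterase genes 11 were tested, and 0 passed in edgeR's quasi-likelihood test in any of the 3 comparisons. An unadjusted p under 0.05 was found for 0 of them for resveratrol against obesity, against 2.34% of all genes, and for 3 of the 11 in each comparison with control, against 24.3% of all genes for obesity and 18.5% for resveratrol. Pde11a, an enzyme for both messengers, had the smallest p for resveratrol against obesity, at 0.636 and 0.778 CPM in the resveratrol pair and 1.98 and 1.95 CPM in the obesity pair. Pde10a, best known from the striatum, had it in both comparisons with control, at 7.81 and 4.08 CPM in the resveratrol pair, 4.75 and 2.90 CPM in the obesity pair and 0.209 CPM in the lone control. Pde7a, a cAMP enzyme of lymphocytes and other cells, was at 15.6 and 74.3 CPM in the resveratrol pair, against 107 and 104 CPM in the obesity pair, and at 24.7 CPM in the lone control.

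Among genes that make the messengers, 10 adenylyl cyclases and 7 of 8 guanylyl cyclases were tested. In edgeR's test 0 of them passed in any comparison. For resveratrol against obesity, obesity against control and resveratrol against control, an unadjusted p under 0.05 was found for 2, 5 and 4 of the 10 adenylyl cyclases and for 2 of the 7 guanylyl cyclases each time, against 2.34%, 24.3% and 18.5% of all genes. Adcy8, a calcium-stimulated cyclase, was at 0.999 and 0.272 CPM in libraries 1 and 2 of the resveratrol group, at a count of 0 in both obesity libraries, where 3 counts correspond to 0.157 and 0.143 CPM, and at 62.4 CPM in the lone control. It was at least 399-fold lower in obesity than in control, taking 3 counts per library as the floor. Adcy5 was at 371 and 305 CPM in the resveratrol pair, 226 and 377 CPM in the obesity pair and 25.3 CPM in the lone control, and had the smallest p of the adenylyl cyclases for resveratrol against control. Gucy1a1, a subunit of the nitric oxide receptor that makes cGMP, was at 21.4 and 28.6 CPM in the resveratrol pair, against 9.86 and 10.7 CPM in the obesity pair, a log2 difference of 1.28 (SE 0.318, edgeR unadjusted p = 0.0142, adjusted p = 0.899). Both resveratrol libraries lay above both obesity libraries. The pericyte markers had medians of 166% and 216% of their obesity mean in resveratrol libraries 1 and 2, but the list was split. Abcc9 and Kcnj8 were higher in both resveratrol libraries than in both obesity libraries. Rgs5 was at 61.6 CPM in resveratrol library 1, against 175 and 115 CPM in the obesity pair. Cspg4 was at 70.8 CPM in resveratrol library 2, against 83.3 and 97.4 CPM. The part of pericytes in the Gucy1a1 difference was not tested. Npr2, the receptor for C-type natriuretic peptide, was at 80.7 and 103 CPM in the resveratrol pair, 70.0 and 73.7 CPM in the obesity pair and 10.9 CPM in the lone control.

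Downstream of the messengers, 6 protein kinase A subunits, 4 genes of cGMP-dependent kinases and cAMP-activated exchange factors, and 11 of 12 anchoring proteins were tested, and 0 passed in edgeR's test in any comparison. In the same order of comparisons, an unadjusted p under 0.05 was found for 0, 2 and 1 kinase A subunits and for 0, 2 and 3 anchoring proteins, and for 0 of the cGMP kinase and exchange factor genes, against the same 2.34%, 24.3% and 18.5% of all genes. Prkar2b, the regulatory subunit that prevails in fat, was at 81.6 and 557 CPM in libraries 1 and 2 of the resveratrol group, 598 and 788 CPM in the obesity pair and 5.54 CPM in the lone control. Its levels followed the adipocyte markers, as low in resveratrol library 1 and lowest in control. Prkg1, the cGMP-dependent kinase of smooth muscle, was at 34.0 and 3.31 CPM in the resveratrol pair, 3.29 and 2.76 CPM in the obesity pair and 2.96 CPM in the lone control, high in the same library as Pde5a. Akap5 was likewise high in resveratrol library 1 alone, at 14.9 CPM beside 1.48 CPM in library 2 of the resveratrol group and 0.939 and 0.476 CPM in the obesity pair, and Prkar1b was at 17.7 and 5.72 CPM in the resveratrol pair, against 4.64 and 2.90 CPM in the obesity pair. Prkg2, at 0.261 and 0.0952 CPM in the obesity pair and 2.37 CPM in the lone control, had the smallest p of its list for obesity against control. Akap12 was at 96.3 and 132 CPM in the resveratrol pair and 31.0 CPM in the lone control. Akap2, whose reads may be shared with the overlapping gene Pakap, was at 0.939 and 1.29 CPM in the obesity pair and at a count of 0 in control.

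In the lists that feed into the messengers, 5 G protein alpha subunits, 8 genes from the insulin receptor to the kinase Akt2 and 2 exporters were tested, and 0 passed in edgeR's test in any comparison. In the same order of comparisons, an unadjusted p under 0.05 was found for 1, 2 and 0 alpha subunits, 0, 2 and 1 insulin pathway genes and 0, 2 and 2 exporters, against 2.34%, 24.3% and 18.5% of all genes. Gnal, which encodes a stimulatory alpha subunit, was at 2.14 and 1.05 CPM in the resveratrol pair, against 39.0 and 24.6 CPM in the obesity pair, and at 1.53 CPM in the lone control. Gnai1, an inhibitory subunit, was at 103 and 306 CPM in the resveratrol pair and 57.6 CPM in the lone control. All 8 insulin pathway genes were higher in the fit of obesity against control, against 46.9% of all genes, among them Irs1, which couples the insulin receptor to phosphatidylinositol 3-kinase, at 34.4 and 43.5 CPM in the obesity pair and 7.04 CPM in the lone control. In resveratrol libraries 1 and 2 Irs1 was at 26.0 and 41.2 CPM. Pik3cb, a catalytic subunit of that kinase, was at 15.7 and 55.4 CPM in the resveratrol pair, against 63.6 and 84.6 CPM in the obesity pair. Of the exporters, Abcc4 was at 11.9 and 14.4 CPM in the resveratrol pair, 22.5 and 14.8 CPM in the obesity pair and 50.9 CPM in the lone control, and Abcc5 at 92.2 and 115 CPM in the obesity pair and 32.1 CPM in the lone control.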

How the data were processed

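Messenger RNA of 5 libraries was measured from stranded poly-A libraries with paired-end reads of 150 bases, per the labels' protocols. The deposited values are raw whole-number counts for 78334 Ensembl genes, which the authors made with featureCounts on GRCm39 after FastQC, per the submitters' processing notes. Aligner, annotation and strand setting: not given in the sources used here. Symbols were given to 65.7% of identifiers. Genes overlapping Pde3a, Pde5a and Pde8b on the other strand had at most 34 counts in a library.

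Counts were analysed with edgeR 4.0.16 in R 4.3.3. Genes kept by filterByExpr (minimum count 10, minimum total 15) were scaled with TMM. All 5 libraries entered 1 model by group (glmQLFit, robust), with 2 residual degrees of freedom, gave F tests adjusted with Benjamini-Hochberg over 24779 genes at 0.05. The spread for control, with 1 library, was borrowed from the pairs. SE is the absolute log2 difference divided by the square root of F. The biological coefficient of variation was 62.2%. Alternatives were no filter, median-ratio size factors, DESeq2 1.42.0, limma-voom (limma 3.58.1), only the groups compared, a replicate block and leaving out libraries.

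The members and lists were chosen with earlier results of these data known. Named were the 10 members, per pathway list and comparison the gene with the smallest p, and per member the 2 genes of most like pattern; Pde7a, Pde8a and Pde6d were added after their values were seen. Python 3.11.15 with matplotlib 3.10.9 drew the figures.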

Additional observations from a re-analysis of the deposited data

How the results depend on the processing

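Of 320 refitted log2 differences of the 10 genes, 20 changed sign. For resveratrol against obesity, fitting only the groups compared and leaving out control are the same fit, and its values are counted under both settings. Counts of calls depended on the tool, the filter and the libraries. For resveratrol against obesity, where the main test called 0 genes, no filter gave 25, DESeq2 224 and leaving out control and resveratrol library 1 together 66. For obesity against control no filter gave 2575 genes and 1 member (Pde3b), DESeq2 4529 and 2, and fitting only the groups compared 9269 and 4. For resveratrol against control no filter gave 1671 and 1 member (Pde3b), DESeq2 3083 and 2, and limma-voom 80 genes. The cause was not tested.

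Leaving out each library in turn gave 0 to 4758 genes and 0 to 5 members for resveratrol against obesity, 0 to 9227 and 0 to 5 for obesity against control, and 0 to 7469 and 0 to 5 for resveratrol against control. With fewer libraries a side, members not overlapping numbered 3 to 9 for resveratrol against obesity (56% to 80.8% of all genes) and 10 in each case for resveratrol against control (99.3% to 99.4% of all genes). A side left with 1 library was assumed to vary like the others.

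In resveratrol against obesity, leaving out 1 library moved the log2 difference of Pde1c between -0.60 and 4.63, Pde4a between -0.73 and 0.11, Pde4b between -1.13 and 1.67, Pde4d between -0.20 and 0.47, Pde5a between -0.24 and 3.46, and Pde8b between -0.42 and 2.53. Without control and resveratrol library 1 together these were -0.60 for Pde1c, 0.11 for Pde4a, -0.0061 for Pde4d, -0.24 for Pde5a and -0.42 for Pde8b. Pde5a ranged from -1.05 to 0.42 for obesity against control. For resveratrol against control the ranges were -2.57 to 2.67 for Pde1c, -0.57 to 2.23 for Pde4b, -0.37 to 3.29 for Pde5a and -1.95 to 1.01 for Pde8b, and limma-voom gave -0.049 for Pde1c and -0.56 for Pde8b.

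The titles number the libraries, but nothing ties equal numbers to a shared mouse or day, and the 2 numbered pairs are too few to check, with deviations correlated at 0.33. The replicate block called 0 genes and 0 members in each comparison and turned Pde5a in obesity against control to 1.05. Counts of 6 to 11 for Pde1c outside resveratrol library 1 and control limit its differences.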
